A study of Mus musculus with 46 samples.

Results

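The miR-378 family of the mouse was measured here through all miRNAs of the array whose names begin with mmu-miR-378. These were 5 of the 1881 miRNAs on the array, namely mmu-miR-378a-3p, mmu-miR-378a-5p, mmu-miR-378b, mmu-miR-378c and mmu-miR-378d, written without the species prefix from here on. All 5 belonged to the 815 miRNAs that were detected on at least 5 of the 45 analysed arrays and were therefore tested. Each of the 5 met this minimum without its heart arrays, with 16 detections in liver and brain for miR-378a-5p, the least often detected member.

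miRNAs are short RNAs that guide Argonaute proteins to matching sites in mRNAs, mainly through the seed at bases 2 to 8. miR-378a is processed from an intron of Ppargc1b, the gene of PGC-1β, a coactivator of mitochondrial biogenesis and oxidative metabolism. Its hairpin gives 2 mature arms, miR-378a-3p and miR-378a-5p. The 3p arm is known to act on Crat, an enzyme of mitochondrial fatty acid use, and the 5p arm on Med13, a subunit of the Mediator complex. The miRNA is known for its high abundance in oxidative tissues such as heart muscle. miR-378b, miR-378c and miR-378d come from separate hairpins elsewhere in the genome.

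All tissues came from male C57BL6 mice of an Il1a knock-out strain, so that every group carried this deletion. Heart, liver and brain were cut into 8 pieces, each kept for 0, 1, 3, 6, 12, 24, 48 or 96 h either cold, at 4 °C, or at room temperature (RT) before transfer to a stabilising reagent. The methods give 14 h in place of the 12 h of the labels. Total RNA with small RNAs was isolated without DNase treatment and hybridised to Agilent mouse miRNA arrays. The arrays of a tissue and temperature held the pieces of 1 organ of 1 animal and shared 1 slide, so that animal, slide and temperature cannot be told apart in level. On 5 of the 6 slides the arrays lay in the order of storage time. Within those slides, storage time and position on the slide cannot be told apart. By the methods, the heart, liver and brain of a temperature came from the same individual, which leaves 2 animals in all. There were 7 heart, 6 liver and 8 brain arrays from 4 °C and 8 of each tissue from RT. No time point had a replicate, and p-values measure only the spread between pieces of the same organs. RNA integrity was given by the RIN value, a scale on which intact RNA scores high and degraded RNA low. The ages of the animals were not given in the sources used here.

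The mature sequences of the 3 members listed by RefSeq on GRCm38.p6 are shown because they tell which members share a seed, here in capitals and written 5′ to 3′.
miR-378b: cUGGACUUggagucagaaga
miR-378c: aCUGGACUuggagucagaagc
miR-378d: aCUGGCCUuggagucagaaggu
The 3 seeds were all different. miR-378b and miR-378c shared an unbroken run of 19 bases, and miR-378b begins 1 base later, so that its seed is shifted by 1 base. miR-378d shared a run of 14 bases with either of them and differed from miR-378c at 2 of 21 paired positions. Mature miR-378b lies on the plus strand at chr11:88352839-88352858, within the annotated span of Msi2. Mature miR-378c lies on the minus strand at chr14:46954905-46954925, within the span of Samd4 and of the predicted gene Gm52120. Mature miR-378d lies on the minus strand at chr10:126710355-126710376, where no other gene of the table overlaps. Each member was read by 2 probe designs of 15 spots each, and whether a probe of 1 member also binds another was not tested.

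On the 45 arrays, 268 to 798 miRNAs were detected and the summed signal of detected miRNAs ranged from 153088 to 541770 units. The tissue labels matched their defining miRNAs. The muscle miRNA miR-1a-3p had a lowest log2 value of 13.6 in heart, where the highest in the other tissues was 7.81. For the hepatocyte miRNA miR-122-5p these values were 11.14 in liver and 7.34 outside it, and for the neuronal miRNA miR-124-3p 12.93 in brain and 4.57 outside it. On 10 liver and brain arrays the RNA spike-ins that Agilent adds for labelling gave a signal more than 0.2 log10 units over the median of the 4 lowest arrays of the same slide (the 3 lowest on the liver slide of 4 °C). These were the liver arrays of 1, 3 and 48 h at 4 °C and of 0 to 12 h at RT, and the brain arrays of 3 h at 4 °C and of 1 h at RT. The margin to the arrays not so marked was narrow in places, with 2.34 against 2.23 on the liver slide of 4 °C and 3.32 against 3.16 on the brain slide of 4 °C.

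All 5 members were higher in heart than in liver and brain. Heart and the other tissues were compared on the 33 arrays with RIN values over 6, of which 13 were heart, 6 liver and 14 brain. Levels are log2 values after variance stabilizing normalization (VSN), a scaling that makes arrays comparable and the spread of dim and bright signals similar, and differences are on the same log2 scale.

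In heart, miR-378a-3p ranged from 9.57 to 10.52 with a median of 9.92 (9.98 ± 0.26, mean ± SD, n = 13). In liver it ranged from 5.27 to 6.61 with a median of 6.10 (6.07 ± 0.52, n = 6), and in brain from 5.0 to 5.67 with a median of 5.34 (5.34 ± 0.20, n = 14). The lowest heart array thus lay 2.96 units above the highest liver array and 3.90 above the highest brain array, while liver and brain overlapped. The heart minus liver difference was 3.91 ± 0.17 (SE, limma with slide as a random block, adjusted p = 2.18e-20), a 15.0-fold difference. Heart exceeded brain by 4.64 ± 0.13 (limma, adjusted p = 1.98e-26), or 24.9-fold.

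miR-378a-5p, the other arm of the same hairpin, was 7.30 ± 0.25 in heart (n = 13), 3.76 ± 0.65 in liver (n = 6) and 2.25 ± 0.45 in brain (n = 14). It was detected on every heart array with a RIN value over 6, on 5 of the 6 liver arrays and on 4 of the 14 brain arrays. Its brain values are therefore mostly signals near the background, with a median of 3.25 units against 136.9 units in heart. Heart exceeded liver by 3.53 ± 0.22 and brain by 5.05 ± 0.18 (SE, limma, adjusted p = 1.54e-15 and 1.00e-23).

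miR-378b was 9.69 ± 0.26 in heart, 6.10 ± 0.76 in liver and 4.85 ± 0.51 in brain and was detected on all 45 arrays. Heart exceeded liver by 3.58 ± 0.25 and brain by 4.84 ± 0.20 (SE, limma, adjusted p = 2.54e-14 and 1.15e-21). miR-378d was 10.29 ± 0.27 in heart, 6.52 ± 0.64 in liver and 5.19 ± 0.43 in brain, likewise with detection on all arrays. Its differences were 3.76 ± 0.22 against liver and 5.10 ± 0.18 against brain (SE, limma, adjusted p = 2.31e-16 and 5.90e-24). Both members moved together from array to array, as their correlation after removal of slide means shows.

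With VSN, miR-378c had the largest differences of the 5 members in both comparisons. It was 7.92 ± 0.30 in heart, 3.20 ± 0.49 in liver and 2.26 ± 0.30 in brain. Heart exceeded liver by 4.72 ± 0.18 or 26.4-fold, and brain by 5.67 ± 0.15 or 50.7-fold (SE, limma, adjusted p = 2.07e-21 and 8.87e-28). Among arrays with RIN values over 6 it was detected on 5 of 6 in liver and on 12 of 14 in brain, at median signals of 5.26 and 3.56 units against 217.2 in heart. With normexp, which models the background and adds a constant to all signals, its difference to brain was 2.81, below those of miR-378d (4.31), miR-378a-3p (3.98) and miR-378b (3.68).

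**Figure D1:**
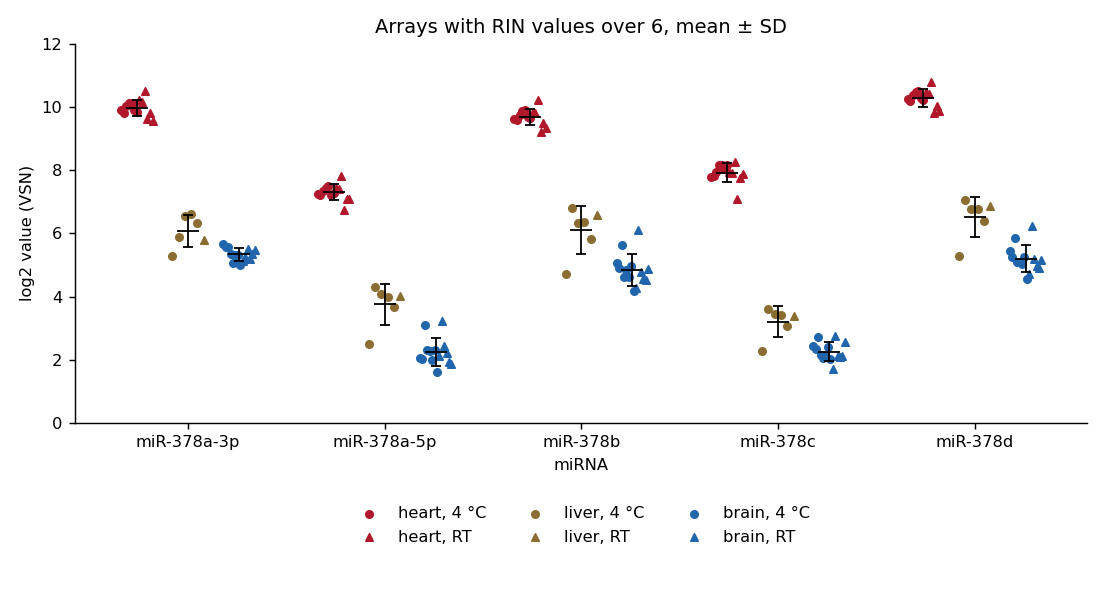
The y axis gives the log2 value after VSN and the x axis the 5 miRNAs, with 1 point for each array with a RIN value over 6 (circles 4 °C, triangles RT), and bars for the mean ± SD of the 13 heart, 6 liver and 14 brain arrays. For every member the 13 heart points lie above all liver and brain points, while liver and brain points overlap.

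Heart arrays did not overlap with liver or brain arrays for any of the 5 members. This held also when all 45 arrays were taken, where the smallest gap was 1.33 between heart and liver for miR-378b. How many of the 815 miRNAs separated in the same way was not counted. All 5 members passed the test against liver, where 44.8% of the 815 miRNAs were called higher in heart, and all 5 against brain, where 21.8% were. The members' median difference was 3.76 against liver and 5.05 against brain, beside 0.60 and -0.44 over all miRNAs tested. The median against brain is the value of miR-378a-5p, which was not detected on 10 of the 14 brain arrays and had a difference of 2.52 with normexp. The 3 members detected on all arrays differed from brain by 4.64 (miR-378a-3p), 4.84 (miR-378b) and 5.10 (miR-378d). Ordered from the most heart-enriched, the members held places between 13 and 30 of 815 against liver and between 7 and 18 against brain. The size depended on the background treatment: with normexp, the members' median difference was 2.15 against liver and 3.68 against brain. With the slide means as the only values, which leaves 2 slides and 2 animals per tissue, all 5 members passed in both comparisons, also with the animal as a block.

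Liver exceeded brain for all 5 members, although less clearly. The differences were 0.73 ± 0.17 for miR-378a-3p, 1.52 ± 0.22 for miR-378a-5p, 1.26 ± 0.25 for miR-378b, 0.94 ± 0.18 for miR-378c and 1.34 ± 0.22 for miR-378d (SE, limma, highest adjusted p = 0.000207). In this comparison 14.6% of the miRNAs were called higher in liver, and the median over all miRNAs was -1.12. Individual arrays overlapped for every member, the liver array of 0 h at 4 °C lying below the highest brain array in each case. Without scaling of the arrays, 3 of 5 members passed, miR-378a-3p and miR-378c being the exceptions at 0.11 and 0.40. Without the liver slide of 4 °C, which leaves 1 liver array with a RIN value over 6 that is assumed to vary like the heart and brain arrays, 4 of 5 members passed, miR-378a-3p not, at 0.45. On the slide means with the animal as a block, the same member did not pass, at 0.62 (limma, adjusted p = 0.0663).

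Markers of other cell types also differed between these tissues. All 5 blood cell miRNAs, among them miR-451a and miR-144-3p of red cells, and all 3 vessel and stroma miRNAs were called higher in heart than in liver, as were 4 of 5 and 3 of 3 against brain. The log2 of the summed signal of the blood cell list was 12.4 to 15.1 in heart, 7.40 to 11.0 in liver and 8.90 to 11.2 in brain. For the vessel and stroma list it was 12.0 to 13.4, 6.47 to 11.0 and 9.39 to 10.9. All 6 miRNAs of heart and skeletal muscle were higher in heart than in either other tissue, with miR-208a-3p and miR-208b-3p detected on no liver or brain array. All 4 liver miRNAs were higher in liver and all 6 brain miRNAs in brain than in the other tissues. miR-206-3p, which marks skeletal muscle, had a heart minus liver difference of 1.62 and a heart minus brain difference of -2.51. In each tissue it was detected on some but not all arrays. Its differences therefore rest partly on signals near background, and no order of the tissues is drawn from them. The part of blood and vessel cells in the family's difference was not tested. In bulk tissue, fewer cells of a type and less RNA per cell cannot be told apart.

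A list of 18 other miRNAs that act on mitochondria, insulin or lipids was split between the tissues. Of these, 13 were called higher and 2 lower in heart than in liver, with a median difference of 1.70, and 8 were higher and 8 lower in heart than in brain. The 3 with the largest excess in heart over liver were miR-1a-3p, a muscle miRNA, with a difference of 14.79 ± 0.51, miR-499-5p, which is made from a myosin gene intron, with 9.11 ± 0.30, and miR-181c-5p, which acts on mitochondrial Cox1, with 3.49 ± 0.20 (SE, limma). miR-499-5p was detected on no liver array, so its difference rests there on signals near background. The same holds for miR-1a-3p, which was not detected on all liver arrays and had a liver mean of -0.31 ± 2.15 (SD, n = 6). The liver mean of miR-181c-5p was also low, at 1.81 ± 0.56 (SD, n = 6). Those lower in heart were miR-122-5p, the main miRNA of hepatocytes, at -8.12 ± 0.45, and miR-33-5p at -1.77 ± 0.36. miR-33-5p lies in an intron of Srebf2 and acts on cholesterol export. Its heart mean was low, at 2.225 ± 0.251 (SD, n = 13).

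Over storage at 4 °C no change of the family with time was detected. On the heart slide of 4 °C, miR-378a-3p was 9.92 after 1 h and then, at 3, 6, 12, 24, 48 and 96 h, 9.82, 10.04, 10.12, 10.12, 9.90 and 9.86. These values spanned 0.30 log2 units in all. On the brain slide it went from 5.67 at 0 h to 5.0 at 96 h, and on the liver slide from 5.27 at 0 h through 6.61 at 12 h to 5.97 at 48 h. The slope within slides was -0.06 log2 units per 24 h for miR-378a-3p, the 95% confidence intervals of the 5 members lay between -0.25 and 0.16, and 0 of 5 members passed (limma). At an unadjusted p under 0.05 the count was also 0. Without the arrays with high labelling spike-ins the slopes lay between -0.07 and 0.03, and again 0 of 5 passed. Over all miRNAs 11.8% were called at 4 °C. The members' median slope was -0.06, beside 0.00099 over all miRNAs.

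At RT the normalized values of 4 of 5 members fell with storage time. On the heart slide miR-378a-3p started from 10.24 and was, after 1, 3, 6, 12, 24, 48 and 96 h, 10.15, 10.52, 9.62, 9.82, 9.57, 9.90 and 8.53. The last array stood 1.71 below the first and was the lowest of all heart arrays. On the liver slide the values were 5.79, 6.27, 6.4, 5.93, 5.62, 5.41, 4.18 and 4.25 in the same order of time points. On the brain slide they stayed between 4.91 and 5.50, with the lowest at 96 h.

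**Figure D2:**
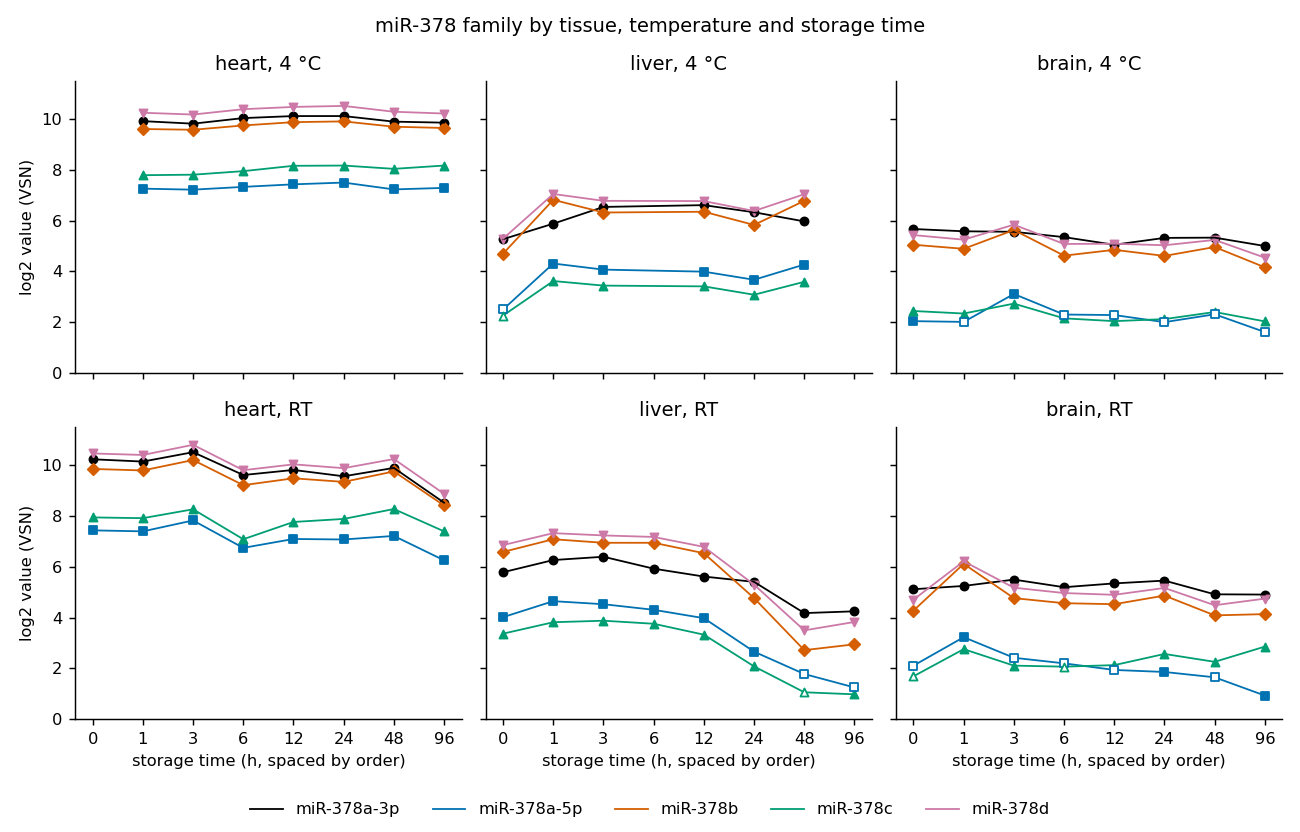
The y axis gives the log2 value after VSN and the x axis the storage time in hours, spaced by order, for the 3 tissues (columns) at 4 °C (top) and RT (bottom), with 1 point per array and open points where the miRNA was not detected. Values at RT drop between 12 and 48 h in liver and at 96 h in heart, while the heart arrays of 4 °C stay within 0.38 log2 units for each member.

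The slope within the RT slides was -0.34 ± 0.07 log2 units per 24 h for miR-378a-3p, -0.51 ± 0.09 for miR-378a-5p, -0.57 ± 0.14 for miR-378b and -0.50 ± 0.12 for miR-378d (SE, limma, adjusted p = 0.000365, 7.34e-05, 0.000658 and 0.000681). miR-378c was the member that did not pass, with a slope of -0.23 ± 0.12 (adjusted p = 0.0709, 95% confidence interval -0.47 to 0.0078). Over all miRNAs 37.3% were called with a negative slope at RT. The median over all miRNAs was 0.07, beside -0.50 over the members. Of the list of 18 other metabolic miRNAs, 15 fell and 2 rose at RT, with a median of -0.52 per 24 h.

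Liver had the steepest slope for each member, as fitted slide by slide without a test. For miR-378b it was -1.18 per 24 h in liver, -0.30 in heart and -0.23 in brain, and for miR-378d -1.0, -0.34 and -0.17. For miR-378c the direction differed between slides, with -0.79 in liver, -0.06 in heart and 0.17 in brain. The brain slide of RT held its highest value of miR-378c, 2.86, at 96 h. The unequal slopes of the tissues were not tested for storage time.

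Leaving out the liver slide gave smaller slopes of -0.24 for miR-378a-3p, -0.32 for miR-378a-5p, -0.26 for miR-378b and -0.25 for miR-378d, all still called, while miR-378c turned to 0.05. Without the brain slide all 5 members were called. Within the first 24 h, 1 of 5 members passed, miR-378a-5p. The result also depended on the scaling of the arrays. Without any scaling, the slopes were 0.04 for miR-378a-3p, -0.18 for miR-378a-5p, -0.20 for miR-378b, 0.13 for miR-378c and -0.13 for miR-378d, and 0 of 5 passed (limma). The median slope of all miRNAs then was 0.40 per 24 h, so that each member lay below it. On the heart slide of RT the unscaled signal of miR-378a-3p was 1034 units at 0 h and 790.7 at 96 h, with 1656 in between at 48 h. From 0 to 96 h it went from 28.05 to 46.92 on the liver slide and from 24.86 to 66.13 on the brain slide. The other members were lower at 96 h than at 0 h in liver and higher in brain. In heart, miR-378a-5p and miR-378c were higher at 96 h, and miR-378b and miR-378d lower. The number of detected miRNAs on the heart slide of RT rose from 390 at 0 h to 683 at 96 h. With the other 4 scalings and background treatments tried in place of VSN, all 5 members were called. Under these, 584 to 602 of all 815 miRNAs were called in either direction, beside 636 with VSN.

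Fitted over all tissues together, the slopes of RT and 4 °C differed for the same 4 members. The difference, RT minus 4 °C, was -0.28 ± 0.10 per 24 h for miR-378a-3p, -0.46 ± 0.13 for miR-378a-5p, -0.51 ± 0.18 for miR-378b and -0.43 ± 0.15 for miR-378d (SE, limma, adjusted p = 0.0174, 0.00459, 0.0166 and 0.0197). For miR-378c it was -0.25 ± 0.14 (adjusted p = 0.135, 95% confidence interval -0.54 to 0.04). Over all miRNAs 28.0% were called with a lower slope at RT. Leaving out heart or liver left 1 of 5 members called, and so did leaving out the 10 arrays with high labelling spike-ins, where the remaining member was miR-378a-5p at -0.28. Without heart the differences were -0.61 for miR-378b and -0.48 for miR-378d, about as large as with it. Without liver they were smaller, at -0.16 and -0.14. In brain, fitted slide by slide without a test, the slopes at 4 °C and RT were close for all of these members but miR-378a-5p. They were -0.12 and -0.11 for miR-378a-3p, -0.20 and -0.23 for miR-378b and -0.20 and -0.17 for miR-378d. For miR-378a-5p they were -0.16 and -0.395. The liver slide of 4 °C ended at 48 h, had its lowest value at 0 h for each member, and gave positive slopes. Each temperature was 1 animal.

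**Figure D3:**
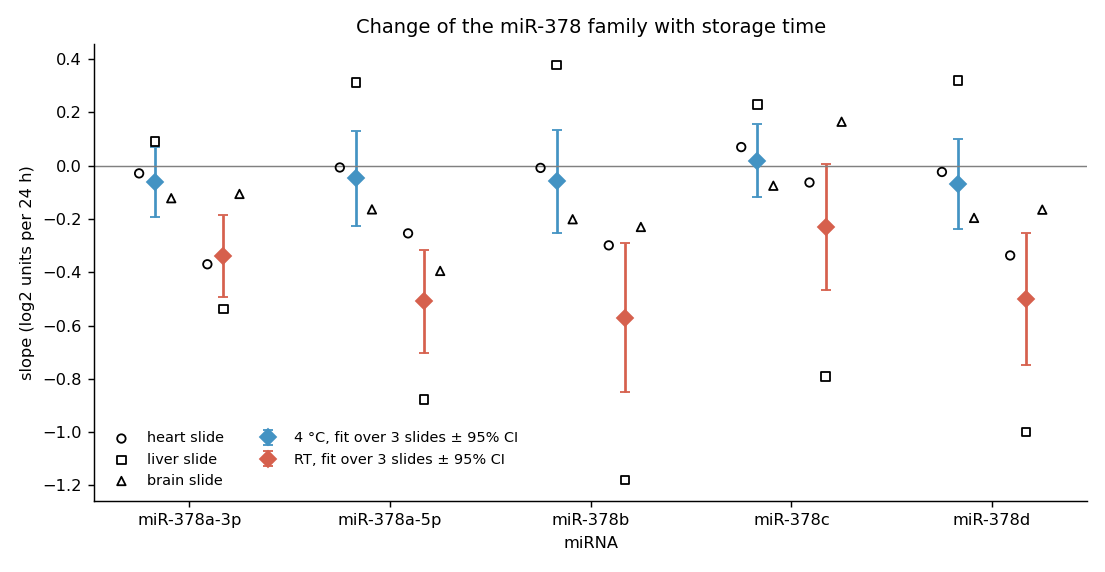
The y axis gives the slope in log2 units per 24 h and the x axis the 5 miRNAs; filled diamonds are the fits over 3 slides with 95% confidence intervals (blue 4 °C, red RT), and open symbols the slopes of single slides (circles heart, squares liver, triangles brain). The intervals at RT lie below 0 for all members but miR-378c, and the liver slides give the lowest slopes at RT and the highest at 4 °C.

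The liver slide of RT showed a step rather than a line in 4 of the 5 members. miR-378d was 6.86, 7.33, 7.24, 7.18 and 6.79 on the 5 arrays from 0 to 12 h, followed by 5.30, 3.50 and 3.83 on the 3 arrays of 24, 48 and 96 h. miR-378b went from 6.54 at 12 h to 4.77 at 24 h and 2.72 at 48 h, and miR-378a-5p from 3.98 to 2.66 and 1.78, where it was no longer detected. miR-378c went from 3.33 to 2.08 and 1.06 over the same arrays. The first 5 arrays of this slide did not overlap with the last 3 in any member, but for miR-378a-3p the step from 12 to 24 h was small, from 5.62 to 5.41. How many other miRNAs separated between these arrays was not counted.

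The labelling spike-ins moved with this step. Their mean log10 signal was 3.29 to 3.42 on the 5 liver arrays of 0 to 12 h at RT and 2.94 to 2.99 on those of 24 to 96 h. The 2 probe designs of miR-378a-3p also changed against each other. The signal ratio of the first to the second probe was 0.54 to 0.63 on the 5 early arrays and 0.80, 0.90 and 0.97 on the 3 late ones. For miR-378d it was 1.81 to 1.92 early and 1.65, 1.52 and 1.40 late. The ratio of the dim miR-378c was 0.07 to 0.14 early, then 0.28 at 24 h and 0.24 at 96 h. For miR-378b early and late ratios overlapped, with 0.178 to 0.203 and 0.172 to 0.298. That of miR-378a-5p was 0.725 to 0.737 early and 0.716 at 24 h. Over all liver and brain arrays, the ratio of miR-378a-3p was 0.54 to 0.71 on the 10 arrays with high labelling spike-ins and 0.76 to 0.97 on the other 20. On the 15 heart arrays it lay between 0.70 and 0.77.

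On some of these arrays the other members stood high relative to miR-378a-3p. On the brain slide of RT, miR-378d was 6.22 and miR-378b 6.12 at 1 h, against 4.49 to 5.18 and 4.09 to 4.87 at the other 7 time points, while miR-378a-3p was 5.25 and within its range there. On the liver slide of 4 °C, miR-378d exceeded its slide's usual difference to miR-378a-3p by 0.97 at 1 h and by 0.87 at 48 h, but only by 0.04 at 3 h. On the heart slides this deviation stayed between -0.09 and 0.08. The part of the labelling in the changes of the family was not tested beyond the fits with and without these arrays.

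**Figure D4:**
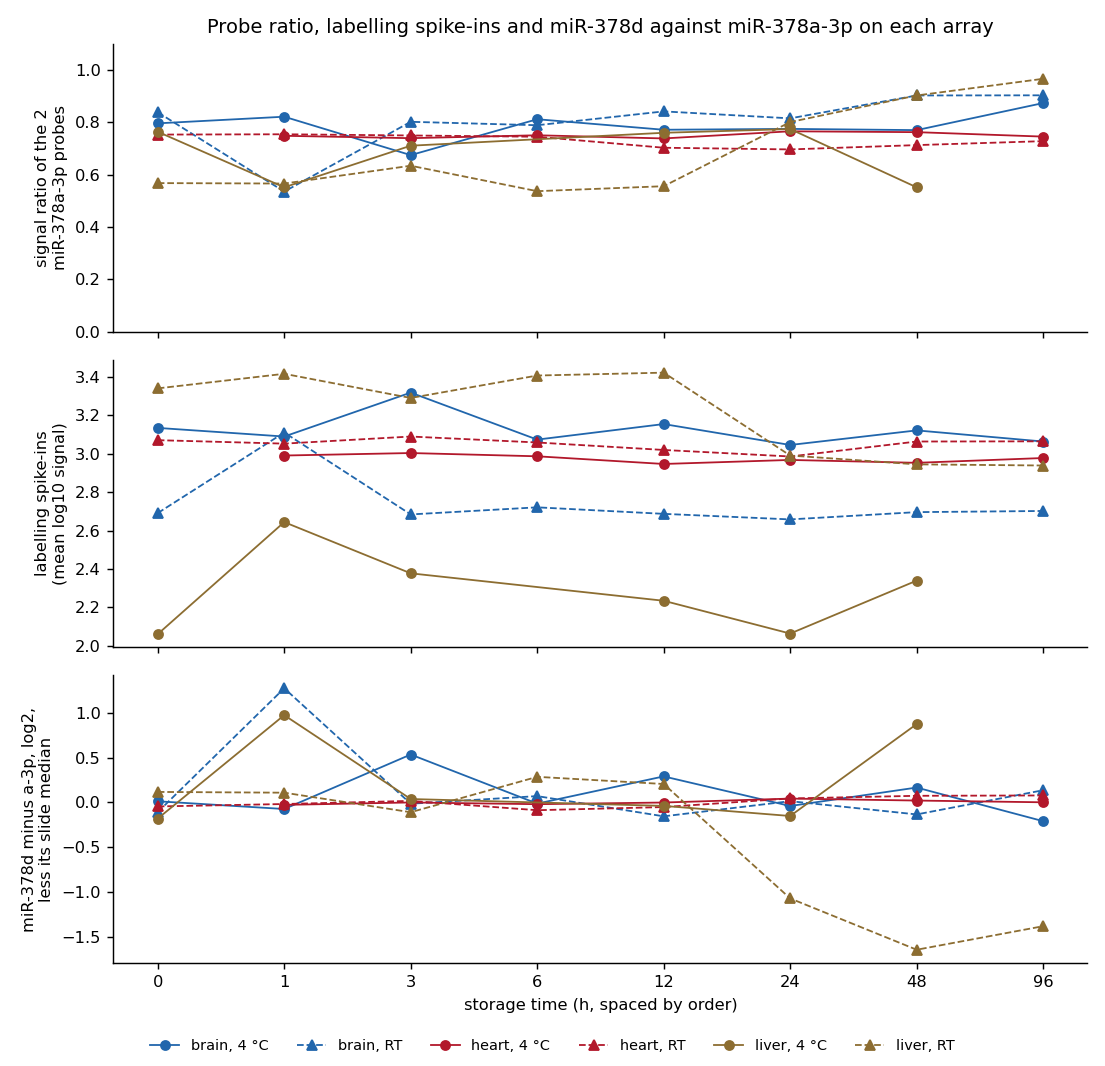
The x axis gives the storage time in hours, spaced by order, and the y axes the signal ratio of the 2 probes of miR-378a-3p (top), the mean log10 signal of the labelling spike-ins (middle) and the log2 difference of miR-378d and miR-378a-3p less its slide median (bottom), with 1 line per slide. On liver and brain arrays with raised spike-ins the ratio falls to 0.54 to 0.71, and on the liver slide of RT all 3 measures shift between 12 and 24 h.

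Without those 10 arrays the 4 members that fell at RT still passed. The slopes were -0.26 for miR-378a-3p, -0.31 for miR-378a-5p, -0.26 for miR-378b and -0.24 for miR-378d (limma, adjusted p = 0.0041, 0.000316, 0.0127 and 0.016). miR-378c then had a slope of 0.01. Of the liver slide of RT, only the arrays of 24, 48 and 96 h were left. Its fall between 12 and 24 h therefore lay outside these fits. With the spike-in signal as a covariate the slopes were -0.28, -0.33, -0.29 and -0.27 in the same order, and the same 4 members were called. The tissue differences without the 10 arrays were 3.90 to 5.0 between heart and liver and 4.65 to 5.75 between heart and brain. All 5 members were called in both, as between liver and brain. Liver was then left with 3 arrays with RIN values over 6, those of 0, 12 and 24 h at 4 °C. They came from 1 slide and 1 animal, so that these fits hold no spread between liver slides.

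RNA integrity was related to the level of 3 of 5 members within slides. The slope per RIN unit was 0.15 ± 0.04 log2 units for miR-378a-3p, 0.17 ± 0.06 for miR-378a-5p and 0.16 ± 0.07 for miR-378d (SE, limma, adjusted p = 0.00215, 0.0185 and 0.0383). For miR-378b it was 0.17 ± 0.08 (adjusted p = 0.0571) and for miR-378c 0.04 ± 0.06 (adjusted p = 0.568). Over all miRNAs 26.1% were called with a positive slope, and the median slope was -0.04, beside 0.16 over the members. Of the 12 arrays with RIN values of 6 or lower, 11 were from RT. With storage time in the fit 0 of 5 members passed (limma), the slopes lying between -0.08 and 0.05. Without the 96 h arrays 0 of 5 passed as well, as with RIN values over 6 only. Without heart 0 and without brain 1 of 5 members were called, and without the 10 arrays with high labelling spike-ins 4. Without scaling, all 5 slopes were negative, from -0.19 to -0.04, and 1 of 5 passed, miR-378c.

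A difference of the RIN slope between tissues was not detected for any member. 0 of 5 members passed the F-test of unequal slopes (limma, lowest adjusted p = 0.80, for miR-378c), where 2.09% of all miRNAs were called, and 0 had an unadjusted p under 0.05. Without the arrays with high labelling spike-ins 0 of 5 passed as well, the lowest adjusted p being 0.212 for miR-378a-5p. The slopes of miR-378a-3p were 0.18 ± 0.07 in heart, 0.14 ± 0.07 in liver and 0.10 ± 0.09 in brain (SE). Those of miR-378c were 0.02 ± 0.09, 0.14 ± 0.09 and -0.11 ± 0.12.

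**Figure D5:**
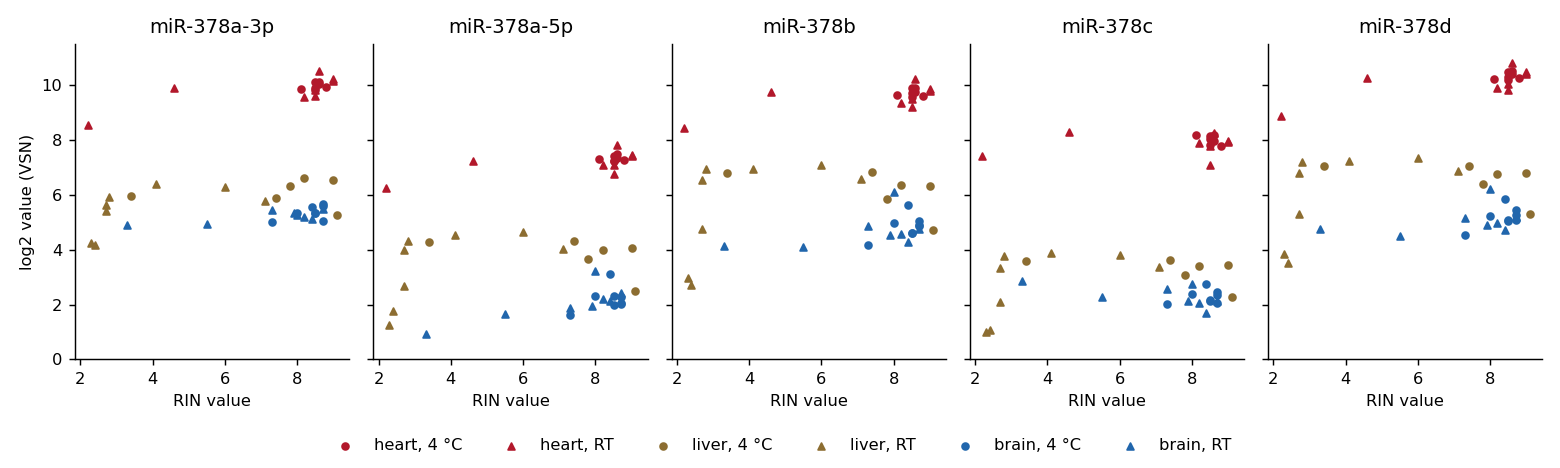
Each panel is 1 miRNA, with the RIN value on the x axis, the log2 value after VSN on the y axis and 1 point per array (red heart, brown liver, blue brain, circles 4 °C, triangles RT). Heart points lie above all others at every RIN value, and the lowest liver values, between 0.98 and 4.18, are at RIN values of 2.3 and 2.4.

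Within liver, 8 arrays whose RIN value did not exceed 6 were compared with 6 arrays over 6. miR-378a-3p was 5.50 ± 0.86 (SD, n = 8) on the former and 6.07 ± 0.52 (n = 6) on the latter, and the ranges, 4.18 to 6.4 and 5.27 to 6.61, overlapped. The means of the other members differed by -0.33 to -0.51 log2 units, low minus high, but their medians were higher in the low group, with 4.13 against 4.00 for miR-378a-5p, 6.66 against 6.34 for miR-378b, 3.46 against 3.39 for miR-378c and 6.91 against 6.78 for miR-378d. Without the array of 96 h at RT the mean differences of these 4 were -0.02, -0.13, -0.12 and -0.18. 0 of 5 members passed the exact 2-sided Wilcoxon-Mann-Whitney test, the lowest unadjusted p being 0.282 for miR-378a-3p (adjusted p = 0.45), so that 0 had an unadjusted p under 0.05. In this comparison 27.7% of all miRNAs were called. However, the RT slide held 7 of the 8 low arrays and the 4 °C slide 5 of the 6 high ones, so that RIN was tied to slide, animal and temperature. With slide as a block, limma called 0 of 815 miRNAs, 173 having an unadjusted p under 0.05, where limma without the block called 253. Without the arrays with high labelling spike-ins, 3 late RT arrays and 3 arrays of 4 °C remained, which differed by -1.46 (miR-378a-3p) to -2.15 (miR-378b) and could not go below an exact p of 0.1. Within the low group the arrays of 48 and 96 h at RT lay below every array of the high group for all 5 members. The share of all miRNAs with this pattern was not counted. The highest values in the low group exceeded the highest of the high group for all members but miR-378a-3p.

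The members resembled each other closely in their pattern over the 45 arrays, as a description without a test. Pearson's r with miR-378a-3p was 0.99 for miR-378c, 0.98 for miR-378d and 0.97 for miR-378a-5p and miR-378b, and these 4 took places 1, 2, 3 and 5 among the other miRNAs tested. The other miRNAs most like it were miR-133a-5p (r = 0.97), miR-143-5p (0.96), miR-208a-3p (0.96), miR-199b-5p (0.95) and miR-499-5p (0.94). These values reflect the tissue levels, which stand apart, and arrays of a slide share their animal.

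After subtraction of each slide's mean, the ranking changed. The miRNAs most like miR-378a-3p were then miR-194-5p (r = 0.88), miR-677-3p (0.88), miR-503-5p (0.88), miR-361-5p (0.87) and miR-342-3p (0.87). miR-378d followed at place 6 (r = 0.87), while miR-378b, miR-378a-5p and miR-378c took places 31, 51 and 87, at 0.83, 0.81 and 0.78. The closest pair within the family was miR-378b and miR-378d, with r = 0.996 after the subtraction and 0.998 before it. Array scale and labelling are shared by all miRNAs of an array, and the 3 members with sequences above share a run of 14 bases.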

How the data were processed

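Total RNA of heart, liver and brain was measured on 1-colour Agilent miRNA arrays. The authors deposited, per the file headers, the scanner output of Feature Extraction 10.10.1.1 with background-subtracted intensity and detection flags, and log2 values that they had normalized by VSN in R. The heart array of 0 h at 4 °C, set aside by the study, was left out. Liver at 4 °C after 6 and 96 h was not analysed here. VSN was computed anew over 45 arrays with numpy 2.4.6. Over all 46 arrays it differed from the deposited log2 table by at most 0.0104. Values of undetected miRNAs are signals near background.

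limma 3.58.1 (lmFit, eBayes) in R 4.3.3 was run over all miRNAs detected on at least 5 arrays, with Benjamini-Hochberg adjustment over 815 and calls at an adjusted p under 0.05. Tissues were compared with slide as a random block (duplicateCorrelation, consensus correlation 0.0197), slopes with slide as a fixed block, and liver groups with the exact Wilcoxon-Mann-Whitney test. Fits were tested on simulated data. The number of arrays limits the precision.

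Alternatives covered the scaling, normexp on the median spot signal, the detection minimum, the adjustment, covariates and left-out arrays. Those with labelling spike-ins or with the animal as a block were chosen after seeing the data. The pairing by animal comes from the methods. The 4 °C minus RT differences of slide means correlated between tissues at 0.23 to 0.305 over 815 miRNAs, which are not independent replicates and carry the temperature too. The members and lists were chosen with earlier results of these data known. Named miRNAs were the 5 members, the 5 others with the highest r with miR-378a-3p (before and after subtraction of slide means), and from a list of 18 metabolic miRNAs up to 3 called in each direction with the largest heart minus liver difference.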

Additional observations from a re-analysis of the deposited data

Results flagged for a closer look

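In 4 of the 30 sets of a member and a slide, 1 array lay apart from the rest by Dixon's criterion, of which chance marks about 1 in 20 sets. The sets are not independent, because the members share arrays, so the count cannot be weighed against this rate. After subtraction of slide means, miR-378b and miR-378d correlated at r = 0.996. miR-378a-5p was 3.11 on the brain array of 3 h at 4 °C and 2.50 on the liver array of 0 h at 4 °C, the former the highest and the latter the lowest value of its slide. On the brain array of 1 h at RT, miR-378b was 6.12 and miR-378d 6.22, both the highest of their slide. Both brain arrays were among those with high labelling spike-ins, and the part of the labelling was not tested.

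Fitted over all tissues together, the slope with storage time differed between RT and 4 °C in 4 members, by a test of the difference itself (limma). The difference was -0.28 log2 units per 24 h for miR-378a-3p, -0.46 for miR-378a-5p, -0.51 for miR-378b and -0.43 for miR-378d.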

How the results depend on the processing

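Of 945 values of single members under the alternatives, 813 kept their direction and their side of the threshold, 53 were no longer called, 29 became called and 50 changed sign. All 5 members stayed called between heart and liver and between heart and brain under every alternative run. Leaving out 1 slide or tissue in turn gave 4 to 5 members called between liver and brain, 0 to 4 for the RIN slope, 4 to 5 for the RT slope and 1 to 5 for RT against 4 °C.

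Between liver and brain, 3 members were called without scaling. For the RIN slope within slides, 5 members were called with either 75th percentile scaling, with quantile and with normexp, 1 without scaling and with the methods' pooled Pearson correlation, and 0 with Bonferroni adjustment, with the heart array set aside by the study, with RIN values over 6, with storage time as covariate and without 96 h. Without scaling the RIN slopes were -0.064 (miR-378a-3p), -0.039 (miR-378a-5p), -0.041 (miR-378b), -0.19 (miR-378c) and -0.050 (miR-378d). With storage time as covariate they were -0.029, -0.067, -0.076 and -0.041 for miR-378a-5p, miR-378b, miR-378c and miR-378d, and with RIN values over 6 they were -0.023, -0.13, -0.22 and -0.050. miR-378c turned to -0.041 without high labelling spike-ins and ranged from -0.029 to 0.078 when 1 tissue was left out. For unequal RIN slopes 1 member was called with normexp.

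At 4 °C, 1 member was called with the 75th percentile of miRNAs detected on all arrays and 2 with quantile scaling, where the slope of miR-378c was -0.024 and -0.0032. Other slopes there also changed sign. With the heart array of 0 h at 4 °C put back they were, in the order of the members, 0.069, 0.080, 0.075 and 0.065 (all but miR-378c). Pearson's r for these 4 was 0.065, 0.051, 0.052 and 0.048. Over log2(hours + 1) they were 0.022 (miR-378a-5p) and 0.0060 (miR-378b), without 96 h 0.089 (miR-378a-5p), 0.11 (miR-378b) and 0.072 (miR-378d), and up to 24 h 0.18 (miR-378a-3p), 0.070 (miR-378a-5p) and 0.00022 (miR-378d). Leaving out 1 tissue gave -0.089 to 0.056 for miR-378a-5p, -0.11 to 0.068 for miR-378b, -0.019 to 0.10 for miR-378c and -0.11 to 0.044 for miR-378d.

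At RT, 0 members were called without scaling and with Pearson's correlation, 1 with Bonferroni and 1 up to 24 h. Without scaling the slopes of miR-378a-3p and miR-378c were 0.036 and 0.13, and miR-378c was 0.012 without high labelling spike-ins and -0.43 to 0.051 with 1 tissue left out. For RT against 4 °C, 0 were called without scaling and with Bonferroni, 1 without high labelling spike-ins, and the differences without scaling were 0.050 (miR-378a-3p) and 0.059 (miR-378c). miR-378c ranged from -0.53 to 0.057 with 1 tissue left out. In liver, low against high RIN, 3 members were called with the 75th percentile of miRNAs detected on all arrays and 1 each with quantile and normexp, and without scaling the differences were 0.43, 0.70, 0.48, 0.64 and 0.50 in the order of the members. The causes were not tested. With the animal as a block, the tissue comparisons changed no call of a member except miR-378a-3p between liver and brain on slide means. Dim signals of miR-378a-5p and miR-378c in liver and brain limit what can be said there.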

Other observations

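On the heart array of 0 h at 4 °C, which entered no comparison, 215 miRNAs were detected. With VSN over all 46 arrays miR-378a-3p was 6.17 there, miR-378a-5p 3.58, miR-378b 5.82, miR-378c 3.90 and miR-378d 6.44, and all 5 were detected. The lowest values of the other heart arrays of 4 °C on the same scale were 9.86, 7.25, 9.61, 7.83 and 10.22. The unscaled signal of miR-378a-3p was 224.0 units, against at least 841.7 on those arrays.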
